A study of Zea mays with 24 samples.

Results

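In maize seedlings kept without iron, 15 probe sets moved in the same direction in root and shoot, whether or not zinc was also withheld, and stayed within a fixed limit when zinc alone was withheld. A probe set is a group of short DNA probes on the array that together read 1 transcript. The 15 were selected on measured group means, out of 17621 probe sets that are not manufacturer's controls (17734 with the 113 controls). Each had to differ from full nutrition of the same tissue by at least 0.8 on the log2 scale, with one sign, in root –Fe, root –Fe–Zn, shoot –Fe and shoot –Fe–Zn, and by less than 0.8 in root –Zn and shoot –Zn. Of the 15, 2 were higher and 13 were lower under iron deficiency.

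The arrays came from hydroponic seedlings of SKV-616, an inbred line of quality protein maize, so every value refers to 1 genotype. All groups spent 12 days in the same nutrient solution, which held Fe3+-EDTA and ZnSO4 for +Fe+Zn (full nutrition), lacked ZnSO4 for –Zn, lacked Fe3+-EDTA for –Fe and lacked both for –Fe–Zn. Roots and shoots were each hybridised to 3 arrays per solution, which makes 24 arrays in 8 groups. Whether the 3 replicates came from separate plants or cultures is not stated, so the p-values measure the spread between these arrays only. Groups follow the labels, but the fold changes printed by the study come out of these arrays only under another assignment of arrays to groups, in which the labelled root –Fe–Zn arrays stand for root –Fe and the labelled shoot –Fe–Zn arrays for the shoot control. That assignment also crosses tissues, with the labelled shoot +Fe+Zn arrays as root –Fe–Zn and the labelled root –Fe arrays as shoot –Fe–Zn. Leaf marker probe sets summed to 17.46 (log2) in labelled shoot +Fe+Zn and to 10.52 in labelled root –Fe, in keeping with the labelled tissues. Which treatment labels are right was not settled, and every group name used here is the labelled one.

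Iron is needed for chlorophyll synthesis, photosynthetic electron transport and respiration, and its lack yellows young leaves. Grasses such as maize take up iron by chelation: roots make mugineic acids from methionine by way of nicotianamine, secrete them as phytosiderophores, and bring the ferric complex back in through the transporter YS1. Stored iron is held in plastids by ferritin, whose genes are known to be repressed when iron is short.

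Annotation of the 15 was thin. The array annotation used here names the gene of 1 member, Zm.16785.2.A1_at, as LOC542600, a ubiquitin-conjugating enzyme also listed as ubc7, which in that class of proteins passes ubiquitin on towards a target protein. The study's own gene list names 1 more, Zm.8468.1.A1_at, as the gibberellin receptor GID1L2 (gene model GRMZM5G831102). The other 13 are given by their probe set identifier, since no gene is paired with them in the sources used here. By the suffix of the identifier, 12 probe sets are of the standard kind, 2 (_a_at) are shared by transcripts of 1 gene, and 1 (_x_at) may also bind other transcripts.

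All arrays had a similar range, with medians between 3.84 and 4.21 and a common lowest value of 2.24, held by 19.4 to 25.7% of the probe sets. A level at 2.24 means that no signal above background was resolved. Replicates correlated at r of at least 0.989 in 6 groups, at 0.974 to 0.988 in shoot –Fe–Zn and at 0.952 to 0.987 in root –Fe–Zn. The tissue labels fitted 19 of 22 leaf marker probe sets, which were higher in all 4 shoot groups than in all 4 root groups, and 4 of 10 root marker probe sets in the opposite way. Against the labels over all groups went 1 leaf marker and 1 root marker. In +Fe+Zn, 3 of the 10 root markers were higher in shoot than in root. The summed leaf marker level in the shoot was 17.46 on the log2 scale in +Fe+Zn, 16.76 in –Zn, 17.52 in –Fe and 15.98 in –Fe–Zn, and it lay between 10.14 and 11.35 in the root groups. The summed root marker level in the root was 10.23 in +Fe+Zn, 9.95 in –Zn, 8.65 in –Fe and 8.08 in –Fe–Zn. It was lower without iron, as were the 13 lower members, and 7.26 to 7.94 in the shoot groups. A sum of linear levels rests on the brightest markers, and the plain mean over the 10 was 5.18, 4.77, 3.62 and 3.92. The markers were not alike: pht7 and PER66 fell in root –Fe (9.11 to 4.81 and 7.87 to 2.41), whereas PER1 did not (7.95 to 8.12). The middle probe set of the cyclophilin control read 9.03 to 9.83 in the root groups, but 4.84, 2.76, 9.18 and 2.77 in shoot +Fe+Zn, –Zn, –Fe and –Fe–Zn, whereas the 3′ end of the same transcript ranged from 13.57 to 14.20 over the 8 groups. Root –Fe–Zn had an SD of 2.58 (n = 3) for the middle cyclophilin probe set. It stood apart with a mean of 12.46 for the control BioB-3 (3.79 to 6.78 elsewhere) and of 8.95 for 18S ribosomal RNA (3.41 to 5.18 elsewhere). The control DapX-3 split the groups in another way. In shoot +Fe+Zn, –Zn, –Fe and –Fe–Zn it read 10.26, 6.002, 10.6 and 6.15, lower in both groups without zinc. The root groups read 12.57, 9.19, 12.05 and 13.21 in the same order, lower in –Zn but not in –Fe–Zn. Whether this difference bears on the –Zn limit or on –Fe–Zn against –Fe was not tested. The part of leaf and root content, of RNA quality and of the less alike –Fe–Zn replicates in the values that follow was not tested, and in bulk tissue fewer cells of a type cannot be told apart from less RNA per cell.

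Most probe sets that shared an iron-deficiency change also moved under –Zn. Without the zinc condition, 142 probe sets passed the 4 iron-deficiency conditions, 46 higher and 96 lower. Of these, 25 passed the limit in root –Zn alone, 50 in shoot –Zn alone and 52 in both, which left the 15. The root conditions alone were met by 377 probe sets (89 higher, 288 lower) and the shoot conditions alone by 277 higher and 328 lower ones. The 15 are 3.98% of the first and 2.48% of the second, and a further 9 met both with opposite signs, each lower in root and higher in shoot.

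**Figure D1:**
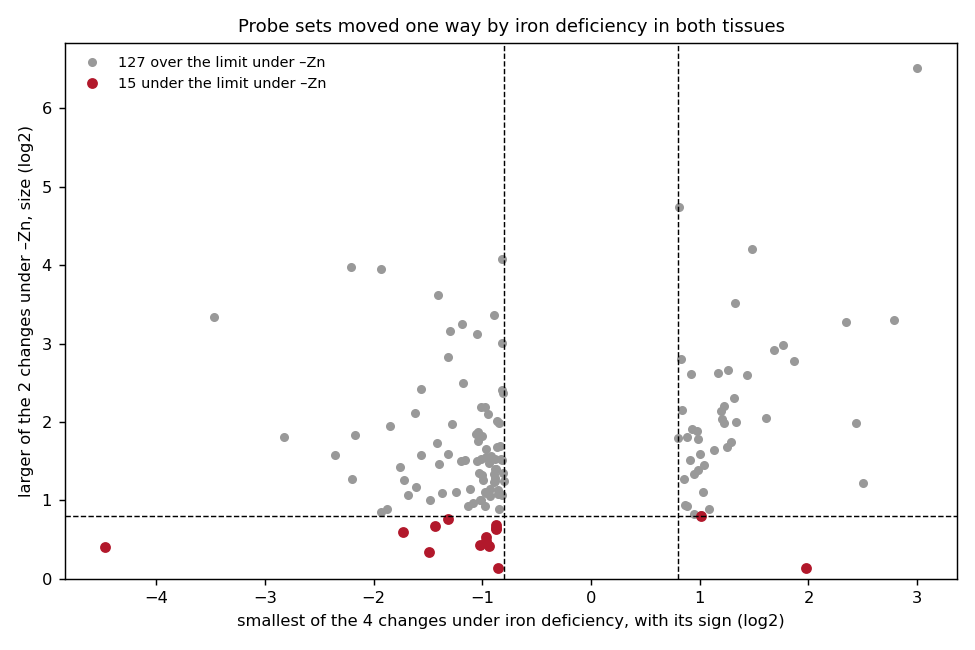
Each point is 1 of the 142 probe sets moved one way by iron deficiency in both tissues; the x axis gives the smallest of its 4 changes with its sign and the y axis the size of its larger change under –Zn, both on the log2 scale. Dashed lines mark the limit of 0.8, and the 15 red points below the horizontal line are the probe sets described here.

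Several members lay close to a limit. Zm.2062.1.S1_at and Zm.1527.2.A1_a_at had a smallest iron-deficiency change of 0.852 and 0.872 in size, both in root –Fe. Zm.3221.1.S1_at and Zm.3364.1.A1_at reached 0.797 and 0.762 in root –Zn. Just outside were Zm.6946.1.A1_at and Zm.11874.1.A1_at, with a smallest iron-deficiency change of 0.77 each, and Zm.6663.1.A1_at and Zm.16796.2.A1_x_at, at 0.814 and 0.823 in shoot –Zn. Membership of the probe sets near 0.8 is therefore a matter of hundredths on this scale.

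The strongest rise in root belonged to Zm.2549.1.A1_at. In root it read 3.53, 3.54 and 3.53 in +Fe+Zn, 6.62, 6.70 and 6.60 in –Fe and 8.32, 9.54 and 9.46 in –Fe–Zn. In shoot it read 7.95, 8.10 and 8.18 in +Fe+Zn, 10.99, 10.83 and 11.00 in –Fe and 10.64, 9.36 and 10.16 in –Fe–Zn. In both tissues every iron-deficient array was above every array that had iron. In linear terms the root rises were 8.61-fold (–Fe) and 47.6-fold (–Fe–Zn), and the shoot rises 7.26-fold and 3.93-fold. Under –Zn its mean moved by 0.09 in root and by -0.14 in shoot.

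Zm.3221.1.S1_at, the other probe set that was higher, had its largest change in shoot –Fe. There it read 7.57, 7.31 and 7.78, against 3.99, 3.88 and 3.55 in +Fe+Zn, a 13.4-fold difference. In shoot –Fe–Zn it read 5.95, 5.53 and 5.68, a level between those of –Fe and full nutrition. In root it read 4.94, 4.92 and 4.99 in +Fe+Zn, 7.15, 7.07 and 7.21 in –Fe, 5.96, 6.41 and 5.53 in –Fe–Zn and 5.53, 5.83 and 5.89 in –Zn. The root –Zn and root –Fe–Zn arrays overlapped, so in root the separation of this probe set from zinc deficiency held for –Fe alone.

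Zm.5794.1.S1_at fell the furthest of the 13 lower members, and reached the bottom of the scale. Its root levels were 6.95, 6.91 and 6.94 in +Fe+Zn and 7.29, 7.49 and 7.26 in –Zn, but 2.24, 2.24 and 2.38 in –Fe and 2.43, 2.47 and 2.50 in –Fe–Zn. Its shoot levels were 11.34, 11.36 and 11.33 in +Fe+Zn, 10.84, 10.85 and 11.16 in –Zn, and 2.47, 3.05 and 3.17 in –Fe–Zn. In shoot –Fe, replicates 1 and 3 stood at 2.24 and replicate 2 at 7.58. Since 2.24 is the lowest value of the table, the log2 changes of -4.65 and -4.47 in root and -7.33 and -8.45 in shoot are limited by that value. The SE of 0.88 for each of these changes comes from 1 spread shared by the 8 groups, to which shoot –Fe (SD 3.08, n = 3) contributed most.

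**Figure D2:**
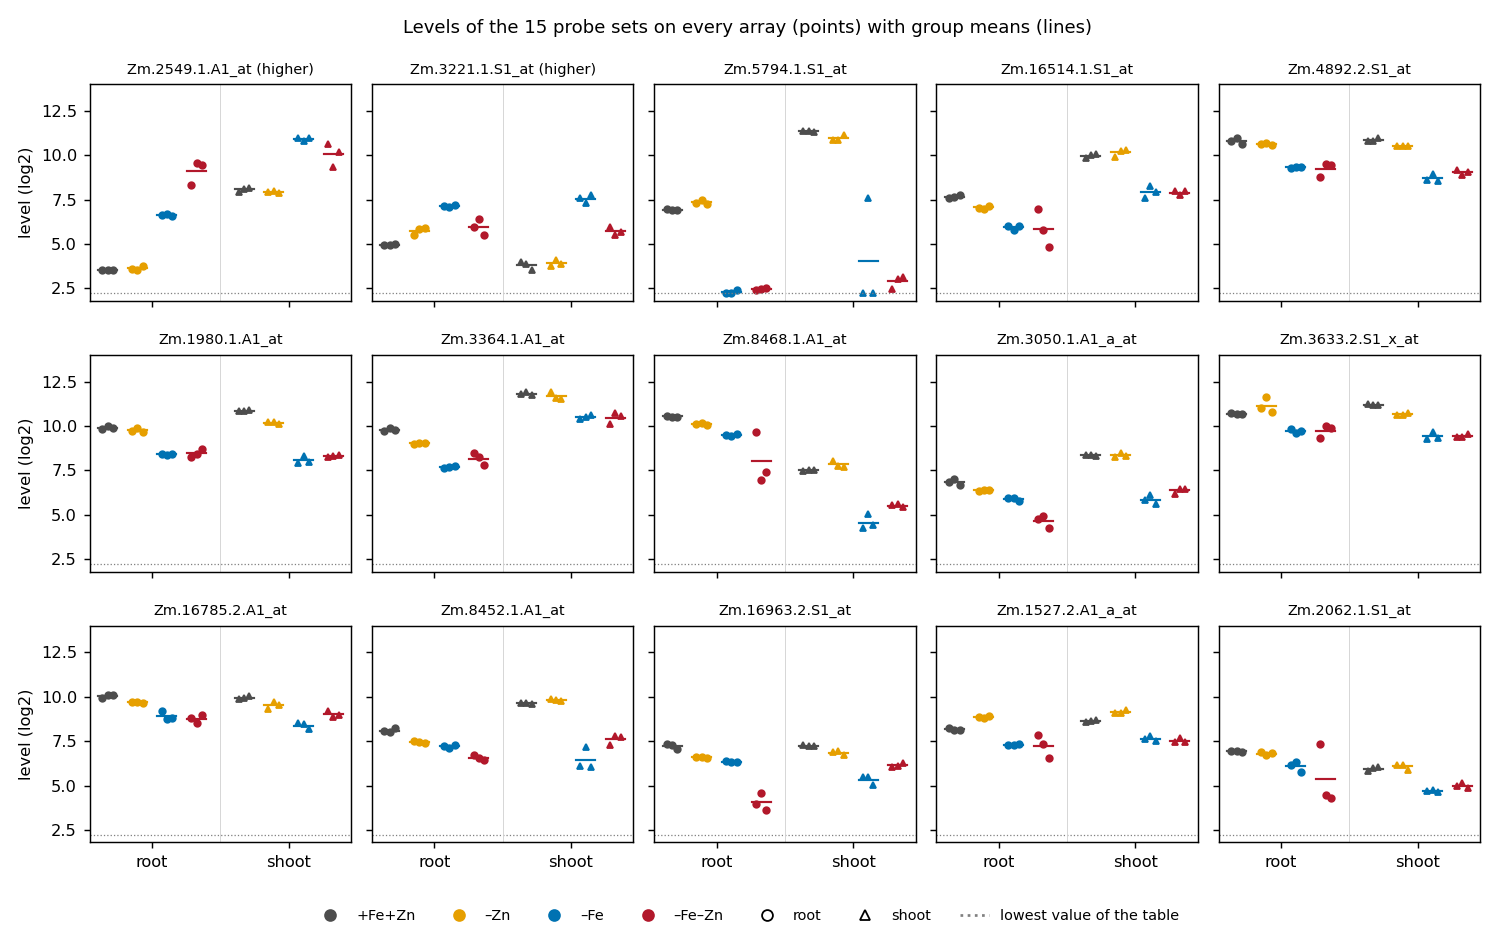
Log2 level of the 15 probe sets on each of the 24 arrays, with root as circles, shoot as triangles, 1 colour per solution and a line at each group mean (n = 3); the dotted line is the lowest value of the table, 2.24. Zm.5794.1.S1_at lies on that line in root –Fe, and its shoot –Fe replicate 2 stands apart at 7.58.

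Zm.8468.1.A1_at, named as the gibberellin receptor GID1L2, was lower without iron and was the member with the largest excess of root over shoot level. In root it read 10.55, 10.53 and 10.54 in +Fe+Zn, 9.52, 9.46 and 9.57 in –Fe, and 9.64, 6.97 and 7.42 in –Fe–Zn. Replicate 1 of root –Fe–Zn thus stayed at the level of –Fe while the other two arrays were more than 2 log2 units lower. In shoot it read 7.45, 7.52 and 7.54 in +Fe+Zn, 4.23, 5.04 and 4.41 in –Fe and 5.53, 5.62 and 5.41 in –Fe–Zn. The study, under its other assignment of arrays to groups, reports this gene as lower in root –Fe and root –Fe–Zn. It reports the gene as higher in shoot –Zn and shoot –Fe–Zn. Under that assignment its root –Fe and root –Fe–Zn stand for the labelled root –Fe–Zn and shoot +Fe+Zn arrays. Gibberellin receptors bind the growth hormone gibberellin and lead to the breakdown of DELLA growth repressors. A second probe set of the same cluster number, Zm.8468.1.A1_s_at, was lower in the same 4 comparisons, by -0.93, -1.25, -1.15 and -0.63, at a much dimmer level (highest group mean 5.55).

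Zm.16785.2.A1_at, the probe set of the ubiquitin-conjugating enzyme LOC542600, changed by -1.13 (–Fe) and -1.27 (–Fe–Zn) in root, and by -1.58 and -0.94 in shoot. Its levels were 9.94, 10.08 and 10.10 in root +Fe+Zn against 9.18, 8.74 and 8.83 in root –Fe, and 9.89, 9.93 and 10.05 in shoot +Fe+Zn against 8.51, 8.46 and 8.16 in shoot –Fe. The other 4 probe sets annotated to this gene did not share these values. Zm.16785.1.A1_x_at was lower in all 4 comparisons but by no more than 0.35 outside shoot –Fe–Zn, and Zm.16785.2.S1_at was higher by 1.73 in root –Fe–Zn and by 1.57 in shoot –Fe–Zn. The values of the member thus held for 1 of the 5 probe sets of this gene.

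A further 4 members were lower by at least 1.3 in all 4 comparisons. Zm.1980.1.A1_at had the most even replicates, at 9.85, 10.01 and 9.87 in root +Fe+Zn, 8.42, 8.37 and 8.45 in root –Fe, 10.82, 10.84 and 10.91 in shoot +Fe+Zn and 7.94, 8.34 and 7.99 in shoot –Fe. Zm.4892.2.S1_at read 10.78, 10.99 and 10.62 in root +Fe+Zn and 9.26, 9.35 and 9.32 in root –Fe, with 10.82, 10.82 and 10.95 against 8.63, 8.94 and 8.54 in shoot. For both, every one of the 12 iron-deficient arrays of root and shoot was below every one of the 12 arrays with iron. Zm.16514.1.S1_at had changes of -1.73 and -1.80 in root and of -2.04 and -2.09 in shoot, although its 3 root –Fe–Zn arrays were spread over 6.96, 5.81 and 4.83. Zm.3364.1.A1_at was the one lower member with a larger fall in root than in shoot under –Fe, from 9.80 to 7.69 in root and from 11.82 to 10.51 in shoot (means, n = 3).

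The remaining members fell by around 1 in root –Fe and mostly by more elsewhere. Zm.3050.1.A1_a_at, Zm.8452.1.A1_at and Zm.16963.2.S1_at had changes of -0.97, -0.88 and -0.88 in root –Fe, and of -2.51, -3.19 and -1.93 in shoot –Fe. Zm.3633.2.S1_x_at (-0.96 and -1.78) and Zm.1527.2.A1_a_at (-0.87 and -0.99) were closer between the tissues. Zm.2062.1.S1_at was the least regular: its root –Fe–Zn arrays read 7.32, 4.44 and 4.33 against 6.96, 6.94 and 6.90 in +Fe+Zn, so replicate 1 lay above the controls.

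Read array by array, the 6 iron-deficient arrays did not overlap the 6 with iron for 13 of 15 members in root (5.21% of all probe sets) and for 15 of 15 in shoot (7.56%), the exceptions being Zm.3221.1.S1_at and Zm.2062.1.S1_at in root. With root and shoot arrays put together, 6 members kept the 12 and 12 arrays apart, as did 0.170% of all probe sets. The group means of these arrays chose the members, so nothing is read from these shares. At a Benjamini-Hochberg adjusted p under 0.05 in the limma model, 2 members were higher and 11 lower in root –Fe, where 14.7% of all probe sets were called higher and 10.9% lower. For root –Fe–Zn the counts were 2 higher and 13 lower (8.09% and 20.0% of all). Both shoot comparisons had 2 higher and 12 lower, beside 17.0% and 16.4% of all probe sets for –Fe and 22.4% and 22.2% for –Fe–Zn. These contrasts chose the members, and the counts are given as a description. The members without a call were Zm.8468.1.A1_at and Zm.2062.1.S1_at in root –Fe and Zm.2062.1.S1_at in both shoot comparisons.

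Under –Zn, where the rule kept changes below 0.8, members ranged from -0.76 to 0.80 in root and from -0.67 to 0.50 in shoot. The limit did not mean that zinc left them alone. In root –Zn, 2 members passed the adjusted p higher (Zm.3221.1.S1_at and Zm.1527.2.A1_a_at) and 4 lower, against 13.4% and 8.46% of all probe sets. In shoot –Zn none passed higher and 3 passed lower (Zm.1980.1.A1_at, Zm.3633.2.S1_x_at and Zm.16785.2.A1_at), against 20.3% and 19.0%. Zm.1527.2.A1_a_at rose by 0.69 in root –Zn while it fell in all 4 iron-deficient groups.

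Shoot and root differed in the size of the change. Under –Fe, 13 members changed more in shoot than in root and 2 changed more in root, Zm.2549.1.A1_at (size in shoot minus size in root -0.25) and Zm.3364.1.A1_at (-0.80). The 13 lower members had a median change of -1.03 in root –Fe and of -2.04 in shoot –Fe. Under –Fe–Zn, 8 members changed more in shoot and 7 more in root, and the medians of the lower members were -1.57 in root and -1.83 in shoot. The median over all probe sets was 0 in each of these 4 comparisons, which says nothing of the size of change. Outside the 15, 2618 probe sets changed by at least 0.8 in root –Fe and 3830 in shoot –Fe. For –Fe–Zn these counts were 2813 and 5353, so larger shoot changes were not confined to the members. The changes of the members were used to choose them, so no test was made.

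**Figure D3:**
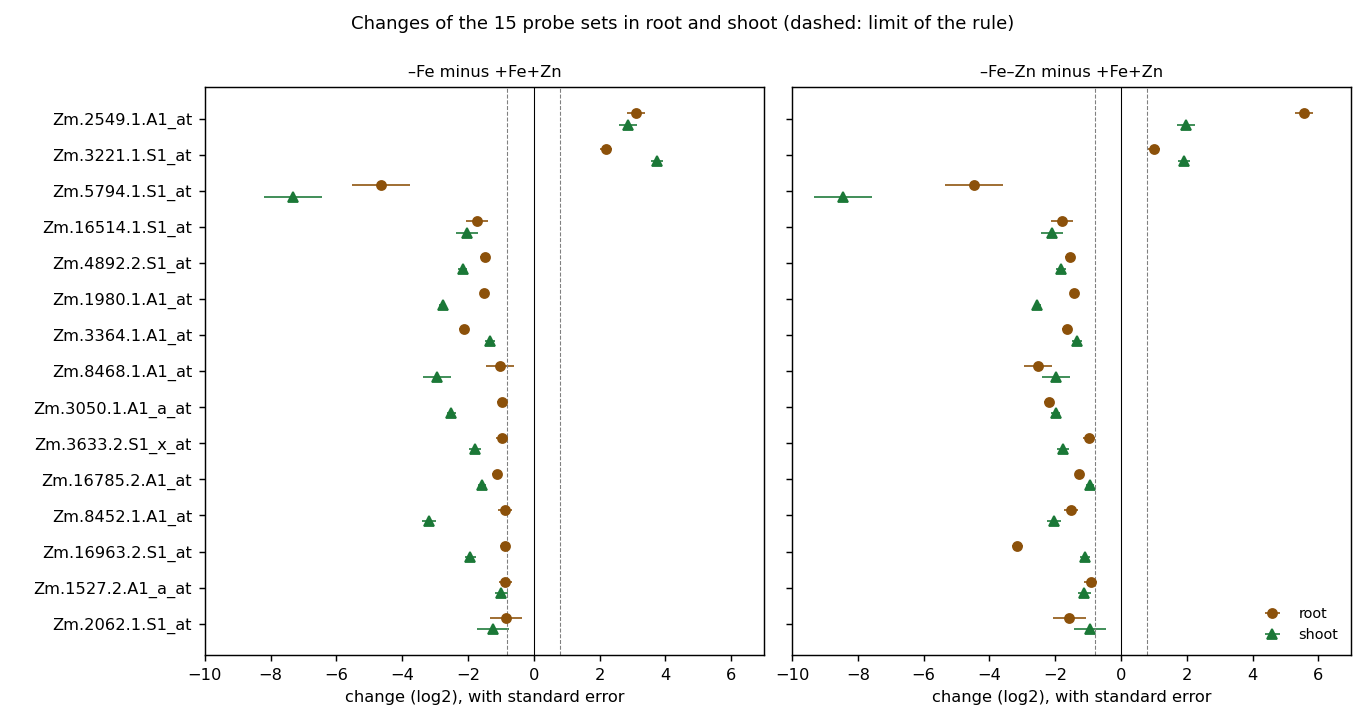
Change from +Fe+Zn in root (circles) and shoot (triangles) for the 15 probe sets, under –Fe on the left and –Fe–Zn on the right, on the log2 scale with the standard error of the model; dashed lines mark the limit of 0.8. Under –Fe 13 of the 15 triangles lie further from 0 than their circle, under –Fe–Zn 8 do.

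The replicates of an iron-deficient group did not respond alike. In shoot –Fe, replicate 2 was the array nearest to full nutrition for 13 of 15 members, 2 of them higher and 11 lower. Among the other 3830 probe sets with a change of at least 0.8 in shoot –Fe, that array was the nearest in 45.1%. The 2 exceptions were Zm.3364.1.A1_at and Zm.16785.2.A1_at. In root –Fe–Zn, replicate 1 was the nearest for 7 of 15 members and for 55.1% of the other 2813 changed probe sets. In shoot –Fe–Zn, replicate 1 was the nearest for 2 of 15 members but for 69.5% of the other 5353 changed probe sets. The median SD of the members within a group was 0.41 in root –Fe–Zn and 0.23 in shoot –Fe, against 0.07 in root –Fe and 0.05 in shoot +Fe+Zn.

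Whether zinc withdrawal added anything once iron was lacking was examined by setting –Fe–Zn against –Fe. The rule used both group means, with full nutrition as their baseline, but not the difference between them, so the p-values here and in the comparison of tissues are not independent of how the members were chosen. In root, 2 members were higher and 5 lower at an adjusted p under 0.05 (limma, Benjamini-Hochberg over all 17734 probe sets), against 10.9% and 26.5% of all probe sets. Zm.2549.1.A1_at rose by a further 2.47 ± 0.27 (SE, adjusted p = 1.4e-06), and Zm.3364.1.A1_at came back by 0.48 ± 0.15 (adjusted p = 0.018). Zm.16963.2.S1_at fell by a further 2.28 ± 0.16 (adjusted p = 9.1e-09), from 6.40, 6.31 and 6.33 to 3.98, 4.57 and 3.65. Zm.8468.1.A1_at, Zm.3050.1.A1_a_at and Zm.8452.1.A1_at also fell further, by 1.51, 1.23 and 0.64. Zm.3221.1.S1_at dropped by 1.17, back towards full nutrition. Without replicate 2 of root –Fe–Zn the fall of Zm.8468.1.A1_at no longer passed (-0.99, adjusted p = 0.059). That of Zm.8452.1.A1_at did not pass without replicate 1 or 3 of root –Fe or replicate 2 or 3 of root –Fe–Zn (-0.59 to -0.64, adjusted p 0.052 to 0.071), nor did the change of Zm.3364.1.A1_at without replicate 1 or 2 of either group (0.33 to 0.47, adjusted p 0.05 to 0.097). Zm.2062.1.S1_at, at -0.72 ± 0.49 with all arrays, passed at -1.70 (adjusted p = 1.7e-08) without replicate 1 of root –Fe–Zn, the array that lay above the controls, and Zm.16514.1.S1_at passed at -0.62 (adjusted p = 0.033) without the same array.

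In shoot, 4 members were higher and 2 lower in –Fe–Zn than in –Fe, against 23.3% and 22.1% of all probe sets. These 6 lay closer to their +Fe+Zn level in –Fe–Zn, whereas 4 of the 9 without a call, Zm.5794.1.S1_at, Zm.1527.2.A1_a_at, Zm.16514.1.S1_at and Zm.3364.1.A1_at, differed by -1.12, -0.13, -0.05 and -0.03, away from it. Zm.8452.1.A1_at regained 1.15 ± 0.21 (adjusted p = 2e-04), from 6.12, 7.19 and 6.02 in –Fe to 7.26, 7.78 and 7.75 in –Fe–Zn. Zm.16963.2.S1_at regained 0.84 ± 0.16, Zm.16785.2.A1_at 0.63 ± 0.13 and Zm.3050.1.A1_a_at 0.52 ± 0.14. Of the 2 higher members, Zm.3221.1.S1_at lost 1.84 of its rise (log2 difference -1.84 ± 0.18, adjusted p = 2.4e-07) and Zm.2549.1.A1_at 0.89 (log2 difference -0.89 ± 0.27, adjusted p = 0.012). After quantile normalization the split was 8 higher to 1 lower in shoot and 3 to 3 in root. Without shoot –Fe–Zn replicate 2 the difference of Zm.2549.1.A1_at was -0.54 (adjusted p = 0.092), and without shoot –Fe replicate 2 that of Zm.5794.1.S1_at turned from -1.12 ± 0.88 to 0.66 (adjusted p = 0.0014). Both shoot –Fe arrays that remain for that probe set read 2.24, the lowest value, so its 0.66 is a distance from background.

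**Figure D4:**
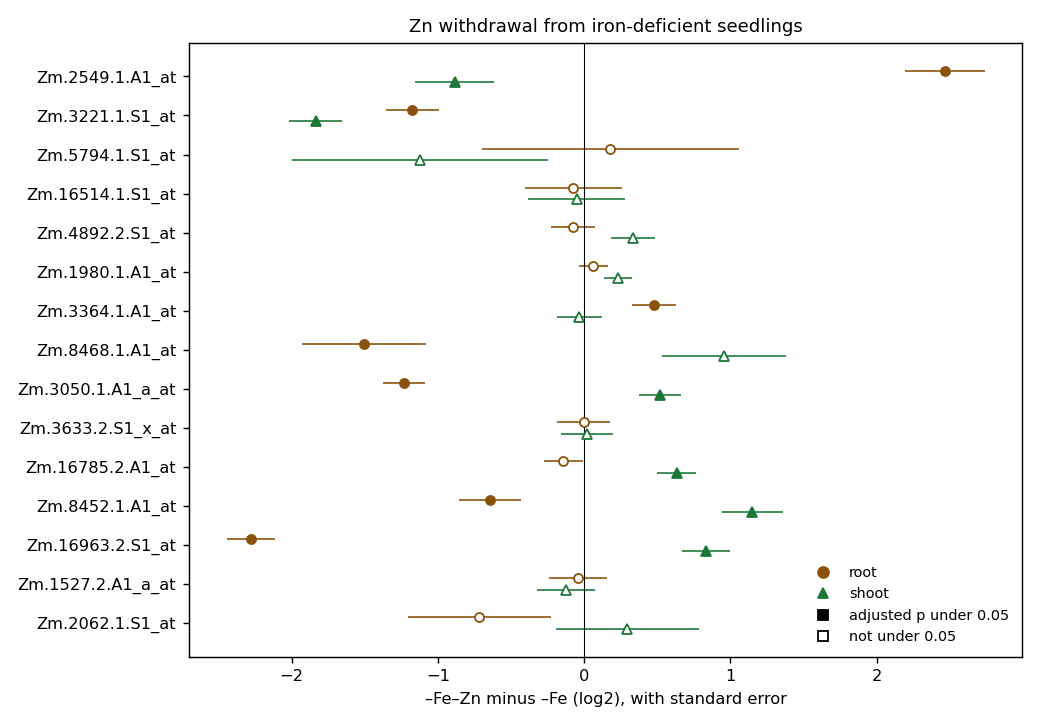
Difference between –Fe–Zn and –Fe for the 15 probe sets in root (circles) and shoot (triangles), on the log2 scale with the standard error of the model; filled symbols have an adjusted p under 0.05. Zm.8468.1.A1_at, Zm.3050.1.A1_a_at, Zm.8452.1.A1_at and Zm.16963.2.S1_at lie left of 0 in root and right of 0 in shoot.

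The opposite course of some members was seen first and then put as a difference of differences, shoot minus root. It passed for 7 of 15 members, 5 higher and 2 lower, against 28.0% and 18.2% of all probe sets, a share near the background. Zm.16963.2.S1_at differed by 3.12 ± 0.23 (adjusted p = 9.4e-09), Zm.8468.1.A1_at by 2.47 ± 0.60, Zm.8452.1.A1_at by 1.79 ± 0.30 and Zm.3050.1.A1_a_at by 1.75 ± 0.20. Each of these 4 fell further in root and was higher again in shoot, although the shoot difference of Zm.8468.1.A1_at alone (0.96 ± 0.42, adjusted p = 0.078) did not pass unless replicate 1 or 2 of root –Fe–Zn was left out. Zm.2549.1.A1_at ran the other way by -3.35 ± 0.38 (adjusted p = 1.5e-06), rising further in root and losing part of its rise in shoot.

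Members were well above the middle of the arrays in full nutrition. Their median level was 8.10 in root and 9.64 in shoot, against 4.15 and 4.09 over all probe sets, and 14 of 15 were above the median in each tissue. To fall by 0.8 a probe set must start at least 0.8 above the lowest value of 2.24. The rule therefore kept the dimmest probe sets out of the lower members, but did not require a level above the median. Between tissues in +Fe+Zn, 8 members were higher in shoot and 2 higher in root at an adjusted p under 0.05, against 25.5% and 26.0% of all probe sets. One of the 8, Zm.3633.2.S1_x_at (0.50 ± 0.18, adjusted p = 0.026), lost its call when any 1 of the 6 control arrays was left out (0.48 to 0.51, adjusted p 0.051 to 0.066). The largest differences were those of Zm.2549.1.A1_at and Zm.5794.1.S1_at, higher in shoot by 4.55 ± 0.27 and 4.41 ± 0.88. Zm.8468.1.A1_at was 3.04 lower in shoot (log2 difference -3.04 ± 0.42, adjusted p = 6e-06). Zm.4892.2.S1_at, Zm.16785.2.A1_at and Zm.16963.2.S1_at showed differences of 0.07 ± 0.15, -0.09 ± 0.13 and 0.03 ± 0.16, none of which passed the test.

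Neighbouring probe sets on the array gave a mixed picture. Identifiers with the same cluster number were designed from 1 cluster of related sequences, and 6 members had 19 such companions, while 9 had none. Of the 19, 8 changed in the direction of the member in all 4 iron-deficiency comparisons. For Zm.3633.2.S1_x_at, Zm.3633.7.S1_at was lower by -0.74 and -1.47 in root and by -1.24 and -1.95 in shoot. Zm.3633.1.A1_at (LOC542414) of the same cluster was higher by 3.95 in shoot –Fe and by 6.74 in shoot –Fe–Zn. For Zm.3050.1.A1_a_at, Zm.3050.2.A1_a_at was lower by -0.36, -1.72, -1.88 and -1.98, whereas Zm.16963.1.S1_at, the companion of Zm.16963.2.S1_at, was higher by 1.33 in shoot –Fe–Zn.

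No probe set known here as an iron or phytosiderophore gene was among the 15, of which 13 have no gene name. A list of iron and phytosiderophore genes was made of 17 probe sets found by symbol in the annotation and 37 that the study had picked on these samples for transport and mugineic acid synthesis, 52 in all, and it held 0 members. The second source is no independent evidence of direction. In root, 5 of the list were higher and 14 lower under –Fe (14.7% and 10.9% of all probe sets), and 11 higher and 10 lower under –Fe–Zn (8.09% and 20.0%). In shoot, 10 were higher and 14 lower under –Fe (17.0% and 16.4%), and 4 higher and 32 lower under –Fe–Zn (22.4% and 22.2%). Under –Zn, 13 were higher and 10 lower in root (13.4% and 8.46%), and 5 higher and 29 lower in shoot (20.3% and 19.0%). In root the median change of the list was -0.10 (–Fe), 0 (both withheld) and 0.17 (–Zn). In shoot the corresponding medians were -0.14, -1.87 and -1.10.

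Of the 52, 17 had 4 iron-deficiency changes of one sign and 4 of these passed 0.8 in all of them. These 4 were picked out after their values were seen, and each was kept out of the 15 by zinc. The gene ys1, which encodes the iron-phytosiderophore transporter, rose from 3.28, 4.16 and 3.40 in root +Fe+Zn to 4.86, 4.64 and 4.93 in –Fe and 6.76, 6.88 and 6.50 in –Fe–Zn. In shoot it went from a mean of 8.76 to 11.13 in –Fe and 10.06 in –Fe–Zn. Under –Zn the same probe set was lower, by -1.08 in root and -2.14 in shoot, opposite to its course without iron. In both tissues, then, every iron-deficient array lay above the arrays of full nutrition.

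The other 3 were lower without iron. The ferritin gene fer1 had means of 9.26 in root +Fe+Zn, 7.38 in –Fe and 6.60 in –Fe–Zn, and of 10.54, 7.94 and 7.02 in shoot. It was left out because it was also lower by -0.89 in shoot –Zn. The ferredoxin gene fdx6, whose product carries electrons on an iron-sulphur cluster, changed by -1.93 and -3.11 in root and by -3.23 and -2.64 in shoot, and passed the zinc limit narrowly at -0.85 in shoot –Zn. Tonoplast intrinsic protein 2, a vacuolar water channel, changed by -2.46 and -2.71 in root and -1.61 and -2.37 in shoot, and by -1.18 in root –Zn.

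Nicotianamine synthases make the precursor of the mugineic acids. Of the 4 probe sets of nas1, which encodes one of them, 1 stood at 2.24 in every group, and none of the other 3 passed the test in shoot –Fe or shoot –Fe–Zn. In root –Fe, 2 of the 3 rose by 1.77 each, and in root –Fe–Zn 2 rose, by 2.20 and 2.32. The probe set that the study names nicotianamine synthase 3 was lower in both tissues, by -2.67 and -1.21 in the iron-deficient root groups and by -0.63 and -0.39 in those of the shoot.

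**Figure D5:**
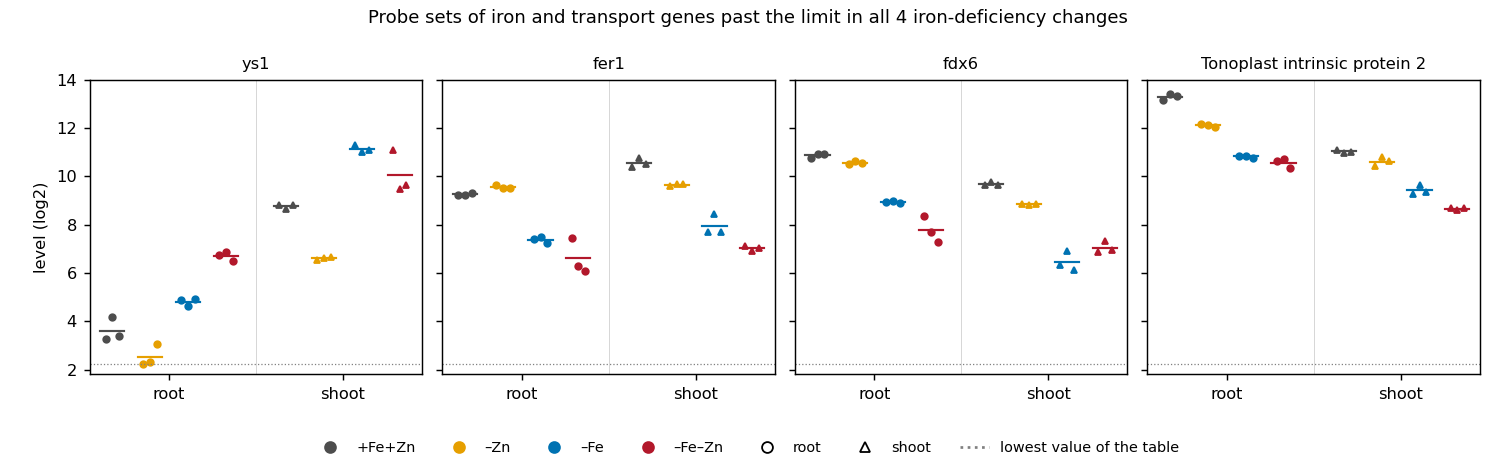
Log2 level of ys1, fer1, fdx6 and Tonoplast intrinsic protein 2 on each of the 24 arrays (root circles, shoot triangles, lines at the group means, n = 3, dotted line at 2.24). The ys1 points rise in all 4 iron-deficient groups and drop under –Zn, and the other 3 are lower in all 4 iron-deficient groups.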

How the data were processed

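Samples were grouped by the tissue and treatment in their titles. The deposited values are log2 levels, a single one for each probe set on each array. The study's methods give GCRMA as the step by which the authors made them, whereas affy, RMA and limma stand in the notes sent to the repository, so the background correction is unsettled. Values were used as deposited. In R 4.3.3 with limma 3.58.1, 1 model with 8 group means was fitted to all 24 arrays (lmFit, eBayes), with Benjamini-Hochberg adjustment over 17734 probe sets and a threshold of 0.05; the fit was tested on simulated data. An exact permutation test of 3 against 3 arrays cannot go below p = 0.10 and was not used. Members and lists were chosen with earlier results of these data known. The rule for named probe sets was: those with 1 symbol or a name in the study, up to 6 higher and 6 lower with the largest smallest change, and those nearest the limit; the remaining members were added to account for all 15. The difference of zinc withdrawal between tissues was added after seeing the data. Symbols came from the array annotation (1452 probe sets with 1 gene, 1 with several, 16281 not listed). Alternatives were quantile normalization, median centring, leaving out probe sets with a highest group mean under 4.53 (the 40th percentile), limits of 0.6 and 1, other fits, and each array left out. Leaving out 1 –Fe–Zn group at a time was chosen after seeing the data. No sequence or genome position is given.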

Additional observations from a re-analysis of the deposited data

Results flagged for a closer look

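The effect of withdrawing zinc from iron-deficient seedlings differed between shoot and root for 7 of the 15 probe sets, by a test of the difference itself (limma, adjusted p under 0.05 over all probe sets). Of all probe sets, 28.0% were higher and 18.2% lower in this contrast, so 7 of 15 is near the background, and the contrast was added after the opposite courses had been seen. On the log2 scale, shoot minus root was 3.116 for Zm.16963.2.S1_at, 2.465 for Zm.8468.1.A1_at, 1.795 for Zm.8452.1.A1_at, 1.751 for Zm.3050.1.A1_a_at and 0.7742 for Zm.16785.2.A1_at. It was -3.351 for Zm.2549.1.A1_at and -0.6621 for Zm.3221.1.S1_at. The last of these had an adjusted p of 0.045 and lost the call in most of the settings with 1 array left out. Some of those arrays were +Fe+Zn or –Zn arrays, which are not part of the contrast. Its largest adjusted p, 0.13, came without root –Fe–Zn replicate 2.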

How the results depend on the processing

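The number found by the rule was sensitive to its settings, and equal counts did not mean equal members. Quantile normalization gave 24 probe sets, 11 of them among the 15, median centring 18 (12 shared), a limit of 0.6 gave 25 (8 shared) and a limit of 1 gave 15 (8 shared). Without both –Fe–Zn groups 165 passed, without root –Fe–Zn 56 and without shoot –Fe–Zn 48. Each held all 15 of necessity, since leaving out such a group only removes conditions, so this says nothing of stability. Leaving out 1 array gave 14 to 19, and 10 members stayed in throughout; Zm.3364.1.A1_at, Zm.3221.1.S1_at, Zm.2062.1.S1_at, Zm.3633.2.S1_x_at and Zm.1527.2.A1_a_at each dropped out for at least 1 root array. For zinc withdrawal in iron-deficient roots (2 higher, 5 lower), quantile normalization gave 3 lower, the fit of the 2 groups compared 1 higher, and leaving out 1 array 1 to 3 higher and 3 to 7 lower. In shoots (4 higher, 2 lower), quantile normalization gave 8 and 1, the fit of 1 tissue 7 higher, the fit of 2 groups 1 lower, and leaving out 1 array 4 to 8 higher and 1 to 2 lower (7 higher without shoot –Fe replicate 2, 8 without root –Fe–Zn replicate 1). The fit of 2 groups called 9 of 15 members in root –Fe–Zn. Single directions turned in 3 cases: zinc withdrawal moved Zm.1527.2.A1_a_at by -0.35 to 0.31 in root when single arrays were left out (0.31 without root –Fe–Zn replicate 3), Zm.5794.1.S1_at by -2.01 to 0.66 in shoot (0.66 without shoot –Fe replicate 2), and Zm.3364.1.A1_at by 0.54 in shoot after quantile normalization. The causes were not tested. For the iron list, root –Zn had 8 higher after quantile normalization and 7 to 16 on leaving out arrays. In root –Fe there were 8 higher without dim probe sets, 10 in the fit of 2 groups and 4 to 9 without single arrays. Root –Fe–Zn had 18 after median centring and 5 in the fit of 2 groups, and shoot –Zn had 3 in the latter fit. Replicate numbers did not pair the arrays (r of deviations -0.469 to 0.292, median -0.0091, over 84 same-number pairs, 11 above 0.1). With the replicate block, the members lower in the difference between shoot and root went from 2 to 1, and without single arrays they were 1 to 4; the block gave 2 higher and 5 lower in root and 4 and 2 in shoot for zinc withdrawal. Precision is limited by 3 arrays a group and, for Zm.5794.1.S1_at, by the lowest value.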
